A study of Drosophila melanogaster with 6 samples.

Results

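Ferritins, transferrins, a divalent metal importer and metallothioneins are the proteins by which an insect stores, carries and buffers iron, copper and zinc. Their transcripts were read in fat bodies of adult female *Drosophila melanogaster* in which insulin/PI3K signalling was lowered. The 10 genes were chosen by symbol and not by a rule on any measured value, but with earlier results of these data known. They were the ferritin chains Fer1HCH and Fer2LCH, the transferrins Tsf1, Tsf2 and Tsf3, the importer Mvl, and the metallothioneins MtnA, MtnB, MtnC and MtnD. All 10 were present among the 15682 genes of the count table, and all 10 passed the filter on low counts that left 10398 tested genes. The 3 *FB-Dp110DN* samples came from flies with a dominant-negative Dp110 transgene, a myc-tagged PI3K catalytic subunit with a defective ATP-binding domain, switched on by the constitutive fat body driver *FB-GAL4*. The 3 control samples came from flies that carried *FB-GAL4* alone. Flies of both groups were 7 to 10 days old and shared the white Dahomey background, which carries the bacterium *Wolbachia*. Each sample pooled the fat bodies of 5 flies per the labels, and the methods of the study give another number. The study processed mutant and control samples in pairs by day. Samples with the same replicate number were taken as such a pair, which is an inference from the titles.

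In insects, iron is stored in a ferritin that passes through the secretory pathway and is built from equal numbers of heavy chains, which oxidise iron, and light chains, which help to form the mineral core. Transferrins bind iron outside cells. Metallothioneins are short, cysteine-rich proteins that bind copper, zinc and cadmium, and in flies their genes are switched on by the metal-responsive factor MTF-1. Fat body cells make both ferritin and Tsf1, and the midgut is the other main site of metal storage and detoxification.

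Total counts ranged from 22607341 to 36870161 per library. Pi3K92E, the gene from which the transgene derives, stood at 343 to 1246 CPM (counts relative to the TMM-scaled library size) in *FB-Dp110DN* and at 81.0 to 94.1 CPM in the control, so that each library lay on the side of its label. The log2 fold change of Pi3K92E was 3.05 (SE 0.40), and this gene too was left uncalled by edgeR, at an adjusted p-value of 0.153, whereas DESeq2 gave it 5.14e-17. Fat body markers were strongly expressed, with 23441 to 73684 CPM summed over 7 genes, led by the yolk protein genes. Replicate 3 of both groups stood apart. Its 12 muscle markers summed to 37011 CPM in *FB-Dp110DN* and 19469 CPM in the control, against 5202 to 8202 CPM in the other libraries, and its 15 gut markers to 6441 and 6930 CPM, against 15893 to 29578 CPM. Not every muscle marker rose. In replicates 1, 2 and 3 of the control sls stood at 579, 591 and 562 CPM and Act57B at 899, 875 and 915 CPM. The gut marker gammaTry was at 0 in replicate 3 of *FB-Dp110DN*, but it was low throughout, from 0.06 CPM in replicate 3 of the control to 22.2 CPM. The gut marker LManV went the other way, at 38.3 CPM in replicate 3 of *FB-Dp110DN* against 1.5 to 20.8 CPM in the other libraries. Other gut markers also departed from the sum. In the control, Mal-A1 was at 662 CPM in replicate 3 and 471 CPM in replicate 1, and Npc2f at 18.1 and 9.12 CPM. The sums of muscle, fat body, hemocyte and neuronal markers were higher in *FB-Dp110DN* in each of the 3 pairs and that of germline markers lower in each. Over all libraries the sums ranged from 660 to 1431 CPM for hemocytes, 110 to 193 for neurons and 589 to 1313 for the germline. Col4a1, at 323 to 976 CPM, was part of both the fat body and the hemocyte sum. Estimates went against the sum for 1 of 12 muscle, 1 of 7 fat body, 1 of 8 hemocyte and 1 of 9 germline markers. The hemocyte marker crq was lower in each pair, and the fat body marker Fbp1 stood at 12.2 against 145.7 CPM in pair 3. Malpighian tubule markers, at 168 to 461 CPM, differed in direction between pairs. In such bulk samples, fewer cells of a type and less RNA per cell cannot be told apart.

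None of the 10 genes differed between the groups at an adjusted p-value under 0.05 in edgeR, where the replicate number was a block of the quasi-likelihood model. The lowest edgeR adjusted p-value was 0.190, for Tsf2. In that test 0.0289% of all tested genes were called. At an unadjusted p-value under 0.05 the count was 1 of 10, again Tsf2, against 26.1% of all tested genes. With DESeq2 and the same block, 0 of the 9 members that received an adjusted p-value were called, against 10.7% of all genes that received one. The lowest DESeq2 value among the members was that of Tsf1, 0.0241 before and 0.116 after adjustment. Across the other edgeR settings, 0 members were called where 0% to 0.0381% of all tested genes were (0.0205% with at least 10 counts in every library), and 0 were called without replicate 3, where 8.32% of all tested genes were. The estimates ran from -0.47 to 0.30 on the log2 scale, with a median of -0.05 beside 0.04 over all tested genes, 4 above 0 and 6 below, and 46.4% of all tested genes were below. The groups did not overlap for 1 of the 10, Tsf2, against 32.6% of all tested genes. The sign was the same in all 3 same-numbered pairs for 3 of the 10, Fer2LCH, Tsf1 and Tsf2, against 56% of all tested genes. A value that misses the threshold does not show equal levels, and the intervals below give the size of difference that these libraries allow.

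**Figure D1:**
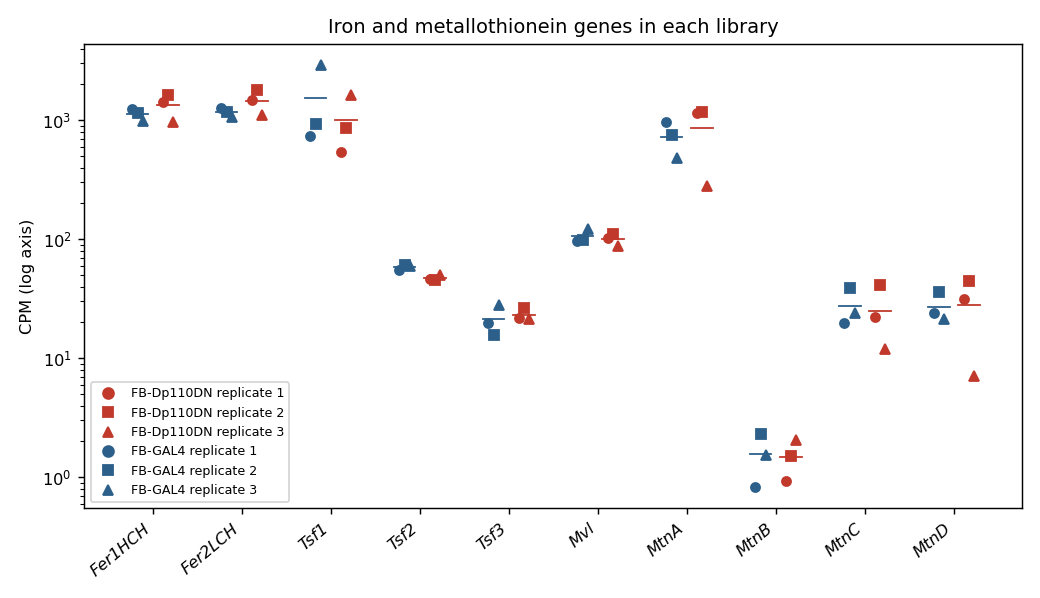
CPM on a log axis of each of the 10 genes in each library, with control libraries in blue, FB-Dp110DN libraries in red, a symbol for each replicate number and a bar for the group mean. The libraries of the groups overlap for every gene except Tsf2, which lies between 45.4 and 50.2 CPM in FB-Dp110DN and between 55.1 and 61.0 CPM in the control.

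The 10 transcripts covered a wide range of levels. Compared per kilobase of exon, MtnA was the most abundant, with means of 1232 CPM per kb in *FB-Dp110DN* and 1042 in the control, which ranked 72nd among 9956 tested genes with a known length. Fer2LCH ranked 110th, Fer1HCH 166th and Tsf1 189th. MtnD and MtnC followed at ranks 741 and 757. Tsf2, Mvl and Tsf3 were of middling level, at ranks 3602, 3634 and 5769, and MtnB was near the bottom at rank 8021. Together the 10 genes took 0.364% to 0.639% of the counts of a library.

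The ferritin chains were considered first. Fer1HCH (FBgn0015222), the heavy chain, stood at 1410.1, 1624 and 972 CPM in replicates 1, 2 and 3 of *FB-Dp110DN* and at 1249.6, 1151 and 988 CPM in the control. Fer2LCH (FBgn0015221), the light chain, stood at 1474, 1778 and 1116 CPM in *FB-Dp110DN* and at 1259, 1164 and 1068 CPM in the control. For either chain, replicates 1 and 2 of *FB-Dp110DN* lay above every control library, whereas replicate 3 lay within or below the control range. The mean of Fer1HCH was 1335 ± 332 CPM (SD, n = 3) against 1129 ± 132 CPM (SD, n = 3), with a log2 fold change of 0.22 (SE 0.18, 95% interval -0.22 to 0.65), at an adjusted p-value of 0.448 in edgeR. The mean of Fer2LCH was 1456 ± 331 CPM (SD, n = 3) against 1164 ± 95.6 CPM (SD, n = 3), with a log2 fold change of 0.30 (SE 0.18, 95% interval -0.15 to 0.75), at an adjusted p-value of 0.319 in edgeR. The pairs gave 0.17, 0.50 and -0.02 for the heavy chain and 0.23, 0.61 and 0.06 for the light chain. The difference was thus within the spread between replicates for both chains. Without replicate 2 the log2 fold changes were 0.08 and 0.15, and without replicate 3 they were 0.34 and 0.43. All these values rest on TMM scaling. Before it, Fer2LCH took 32832 of 33748811 counts in replicate 3 of *FB-Dp110DN* and 34196 of 28559127 in replicate 3 of the control. By that share, Fer2LCH was lower in *FB-Dp110DN* in pair 3.

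The chains moved together. The genes lie next to each other on arm 3R on opposite strands, and in the later annotation BDGP6 their exons overlap, so that reads from the overlap cannot be placed where strand is not used. Per kilobase, the ratio of heavy to light chain transcript was 0.664, 0.633 and 0.604 in *FB-Dp110DN* and 0.688, 0.686 and 0.642 in the control. The level of this ratio rests mostly on the lengths used, 2376 bp for Fer1HCH and 1648 bp for Fer2LCH. These join the exons of all annotated transcripts and may differ from those expressed. The counts were close, 32031 and 33473 in replicate 1 of *FB-Dp110DN*, so no excess of light chain transcript can be read from it. The ratio was lower in *FB-Dp110DN* in each of the 3 pairs, by -0.05, -0.11 and -0.09 on the log2 scale, with a mean of -0.08 ± 0.03 (SD, n = 3 pairs). The groups overlapped, and the exact 2-sided permutation test over the 6 libraries gave p = 0.2, where the smallest p it allows is 0.1. That test takes no account of the pairs, and the exact 2-sided permutation test within pairs, added after the values had been seen, gave p = 0.25, the smallest it can give with 3 pairs. Measured by the root-mean-square difference between centred log2 CPM profiles over the 6 libraries, Fer2LCH was the 14th closest of 10397 tested genes to Fer1HCH, at a distance of 0.067. The closest to Fer1HCH were Adk2, asRNA:CR43425 and CG34112, at 0.040, 0.047 and 0.049. The closest to Fer2LCH was srp, at 0.037, which encodes a GATA factor of fat body and blood cell development.

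The transferrins differed from each other in level, in spread and in direction. Tsf1 (FBgn0022355, arm X), the secreted hemolymph transferrin that is also known to be induced by infection, stood at 542, 855 and 1623 CPM in *FB-Dp110DN* and at 736, 931 and 2906 CPM in the control. Replicate 3 was the highest library of either group, and the control library of each pair was above its partner. The pairs gave log2 differences of -0.44, -0.12 and -0.84. The fitted log2 fold change was -0.47 (SE 0.20, 95% interval -0.95 to 0.01), with an edgeR adjusted p-value of 0.197 and an unadjusted one of 0.0544. Lower values in all 3 pairs were found for 27.7% of all tested genes. Without the replicate block the edgeR adjusted p-value of Tsf1 was 0.571.

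Tsf1 was highest in the library with the most antimicrobial peptide transcripts. The 14 peptide genes found in the table, a list chosen after the values had been seen, summed to 115, 1366 and 244 CPM in replicates 1, 2 and 3 of *FB-Dp110DN* and to 176, 169 and 3840.0 CPM in the control, and all 14 had counts in every library. Replicate 3 of the control was the highest and replicate 1 of *FB-Dp110DN* the lowest library for both the peptides and Tsf1. Replicate 2 of *FB-Dp110DN*, second for the peptides, was the fourth for Tsf1. The tested gene with the profile closest to that of Tsf1 was Def, which encodes the peptide defensin, at a root-mean-square distance of 0.17 log2 units, followed by CG4830 and Prx6b at 0.18 and 0.23. Without replicate 3 the log2 fold change of Tsf1 was -0.27, with an edgeR adjusted p-value of 0.551. The part of the immune transcripts in the difference was not tested.

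**Figure D2:**
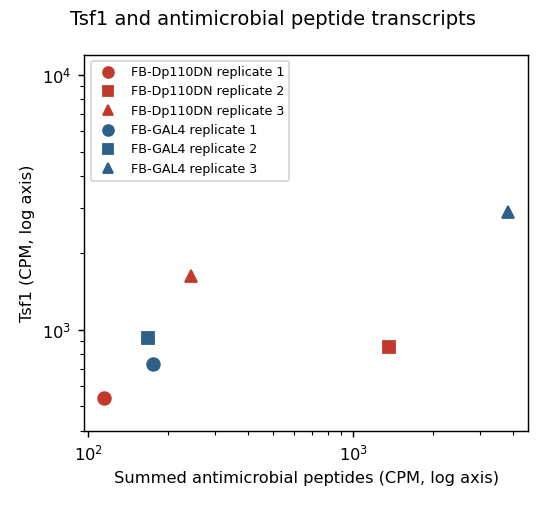
Tsf1 CPM against the summed CPM of 14 antimicrobial peptide genes in each library, both on log axes, coloured by group with a symbol for each replicate number. Control replicate 3 lies at the top right with 2906 CPM of Tsf1, and FB-Dp110DN replicate 1 at the bottom left with 542 CPM.

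Tsf2 (FBgn0036299, arm 3L), a membrane-bound transferrin of epithelial septate junctions, was the most even of the 10 genes, with a 1.34-fold range over the 6 libraries. It stood at 46.6, 45.4 and 50.2 CPM in *FB-Dp110DN* and at 55.1, 61.0 and 59.6 CPM in the control. Every *FB-Dp110DN* library lay below every control library, as it did for 21% of all tested genes. The means were 47.4 ± 2.49 and 58.5 ± 3.08 CPM (SD, n = 3 each), 19.0% lower in *FB-Dp110DN*, and the pairs gave log2 differences of -0.24, -0.42 and -0.25. The fitted log2 fold change was -0.30 (SE 0.12, 95% interval -0.61 to -0.0026), at edgeR p-values of 0.0486 before and 0.190 after adjustment. The difference between the group means was thus larger than the spread within either group, but it did not pass the threshold over all tested genes. The unadjusted edgeR p-value was 0.0684 with DESeq2 size factors and 0.0515 with at least 10 counts in every library. It was 0.0462 without a filter, 0.0460 in the legacy form of the edgeR test and 0.0182 without the block. DESeq2 gave p-values of 0.0983 before and 0.261 after adjustment. Across the fits that each left out a pair the log2 fold change ran from -0.33 to -0.24. Markers of other tissues shifted in the same comparison. The 9 germline markers summed to 915, 589 and 1275 CPM in *FB-Dp110DN* and to 1195, 1306 and 1313 CPM in the control. Estimates were lower for 8 of the 9, against 46.4% of all tested genes, and higher for 11 of the 12 muscle markers. DESeq2 called 1 of the 9 germline markers and 9 of the 12 muscle markers, against 10.7% of all genes that received an adjusted p-value. Their part in the Tsf2 difference was not tested.

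Tsf3 (FBgn0034094, arm 2R), another transferrin, stood at 21.7, 26.4 and 21.4 CPM in *FB-Dp110DN* and at 19.9, 15.7 and 27.9 CPM in the control. The order of the groups differed from pair to pair, with log2 differences of 0.12, 0.75 and -0.38. Its exons overlap those of CG15706 on the other strand in BDGP6. The fitted log2 fold change was 0.16 (SE 0.23, 95% interval -0.41 to 0.73), with an edgeR adjusted p-value of 0.667.

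Mvl (FBgn0011672, arm 3R), known as Malvolio, is the fly member of the NRAMP family, which brings iron, manganese and other divalent metals into the cytosol. It stood at 103, 111 and 87.3 CPM in *FB-Dp110DN* and at 97.0, 99.0 and 121 CPM in the control. Its *FB-Dp110DN* libraries were slightly the higher in pairs 1 and 2 and the lower in pair 3, with log2 differences of 0.08, 0.16 and -0.47. The fitted log2 fold change was -0.08 (SE 0.16, 95% interval -0.47 to 0.32), with an edgeR adjusted p-value of 0.775.

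**Figure D3:**
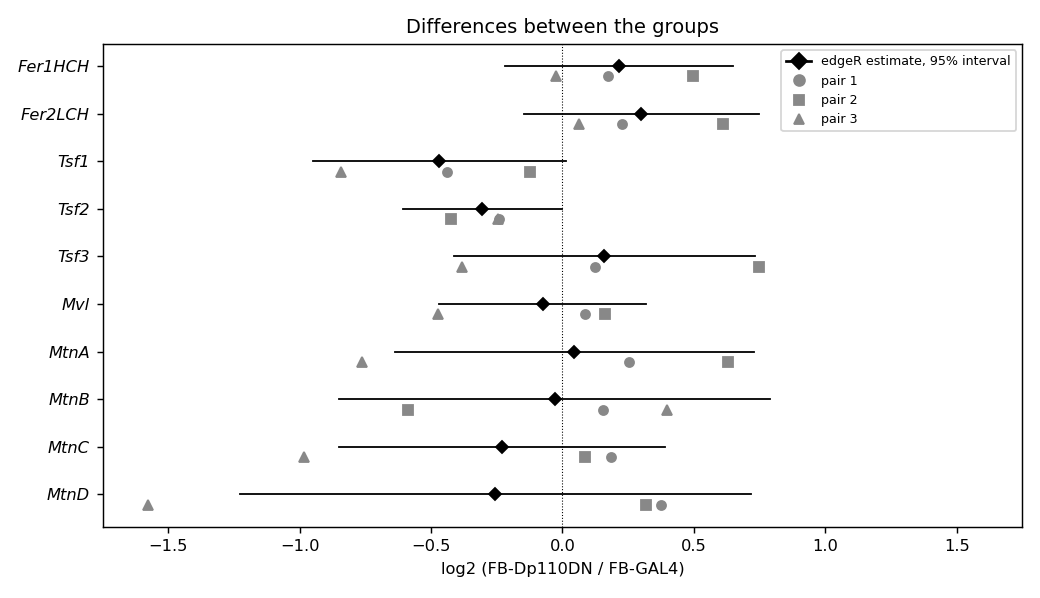
Log2 ratio of FB-Dp110DN to FB-GAL4 for each of the 10 genes, with the edgeR estimate and its 95% interval in black and the 3 same-numbered pairs in grey below it. The interval of Tsf2 ends at -0.0026 and all other intervals include 0, and pair 3 of MtnD lies farthest from 0, at -1.58.

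Among the metallothioneins, MtnA made up nearly all transcripts, with 90.7% to 95.5% of the metallothionein counts of a library. MtnA (FBgn0002868, arm 3R), known in flies for its response to copper, stood at 1141, 1164 and 283 CPM in *FB-Dp110DN* and at 958, 751 and 479 CPM in the control. Replicates 1 and 2 of *FB-Dp110DN* were the 2 highest libraries and replicate 3 was the lowest, so that the range over libraries was 4.12-fold. The pairs gave log2 differences of 0.25, 0.63 and -0.76. The fitted log2 fold change was 0.04 (SE 0.28, 95% interval -0.64 to 0.73), with an edgeR adjusted p-value of 0.925. Without replicate 3 it was 0.45, with an edgeR adjusted p-value of 0.318.

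MtnC (FBgn0038790, arm 3R) and MtnD (FBgn0053192, arm 3R) are shorter transcripts of the same family, and MtnD lies beside a further member, MtnE. MtnC stood at 22.4, 41.0 and 12.1 CPM in *FB-Dp110DN* and at 19.7, 38.6 and 24.0 CPM in the control. MtnD stood at 31.3, 44.9 and 7.07 CPM in *FB-Dp110DN* and at 24.1, 36.0 and 21.2 CPM in the control. Replicate 2 was the highest library of each group for both genes, and replicate 3 of *FB-Dp110DN* was the lowest library of all. The pairs gave 0.18, 0.09 and -0.99 for MtnC and 0.37, 0.32 and -1.58 for MtnD. The fitted log2 fold changes were -0.23 (SE 0.26, 95% interval -0.85 to 0.39) and -0.26 (SE 0.40, 95% interval -1.23 to 0.72), with edgeR adjusted p-values of 0.568 and 0.685. Without replicate 3 they were 0.14 and 0.35, with edgeR adjusted p-values of 0.749 and 0.348. MtnE, named here after its values had been seen, was likewise lowest in replicate 3 of *FB-Dp110DN*, at 6.53 CPM against 15.6 CPM in replicate 3 of the control.

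MtnB (FBgn0002869, arm 3R), known in flies for protection against cadmium, was scarcely expressed. It gave 21, 52 and 60 counts in *FB-Dp110DN* and 29, 57 and 49 counts in the control, and did not follow the other 3. Its fitted log2 fold change was -0.03 (SE 0.34, 95% interval -0.85 to 0.79), an interval that is wide at this depth, with an edgeR adjusted p-value of 0.963. The pairs gave 0.15, -0.59 and 0.40. Reads may be shared between related metallothionein genes.

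The metallothionein sum and the ferritin sum were compared as single values per library. The metallothioneins summed to 1196, 1251 and 304 CPM in *FB-Dp110DN* and to 1003, 828 and 526 CPM in the control. Their log2 pair differences averaged 0.02 ± 0.72 (SD, n = 3 pairs), and the exact 2-sided permutation test gave p = 1, where the smallest p it allows is 0.1. The ferritin chains summed to 2884, 3402 and 2088 CPM in *FB-Dp110DN* and to 2509, 2314 and 2056 CPM in the control. Their log2 pair differences averaged 0.26 ± 0.27 (SD, n = 3 pairs), with an exact 2-sided p of 0.3 and the same smallest p of 0.1. Pair 2 had the largest difference, 0.56, and pair 3 the smallest, 0.02, and without pair 2 the mean was 0.11. As a share of total counts, before TMM scaling, the chains took 0.284%, 0.316% and 0.182% in *FB-Dp110DN*. In the control they took 0.256%, 0.252% and 0.230%. By that share pair 3 was lower in *FB-Dp110DN*.

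The levels of MtnA and Fer1HCH had the same order across the libraries as those of gut transcripts. The 15 gut markers, which are mostly genes of secreted proteases and carbohydrate-cleaving enzymes, summed to 28097, 29578 and 6441 CPM in *FB-Dp110DN* and to 22906, 15893 and 6930 CPM in the control, and 14 of the 15 had counts in every library. Ordered by that sum, the libraries ran from replicates 2 and 1 of *FB-Dp110DN* through replicates 1, 2 and 3 of the control to replicate 3 of *FB-Dp110DN*. MtnA and Fer1HCH had exactly this order of the 6 libraries, the other members did not, and 1.06% of all tested genes had it. The comparison of orders was not planned, and no such share was counted for the orders of the other marker sums. The metallothionein sum, nearly all of it MtnA, had this order too. For Fer1HCH the match rested on a small step, 972 CPM in replicate 3 of *FB-Dp110DN* against 988 CPM in replicate 3 of the control. Fer2LCH differed from the gut order only in that replicate 3 of *FB-Dp110DN* lay above replicate 3 of the control. The fat body markers shared the first 3 libraries of this order and differed in the rest, with 70138, 73684 and 54851 CPM in *FB-Dp110DN* and 68427, 53718 and 23441 CPM in the control. Fer2LCH was 1 exchange of neighbouring libraries away from the order of the fat body markers as well as from that of the gut markers. The part of gut and of fat body transcripts in these levels was not tested.

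**Figure D4:**
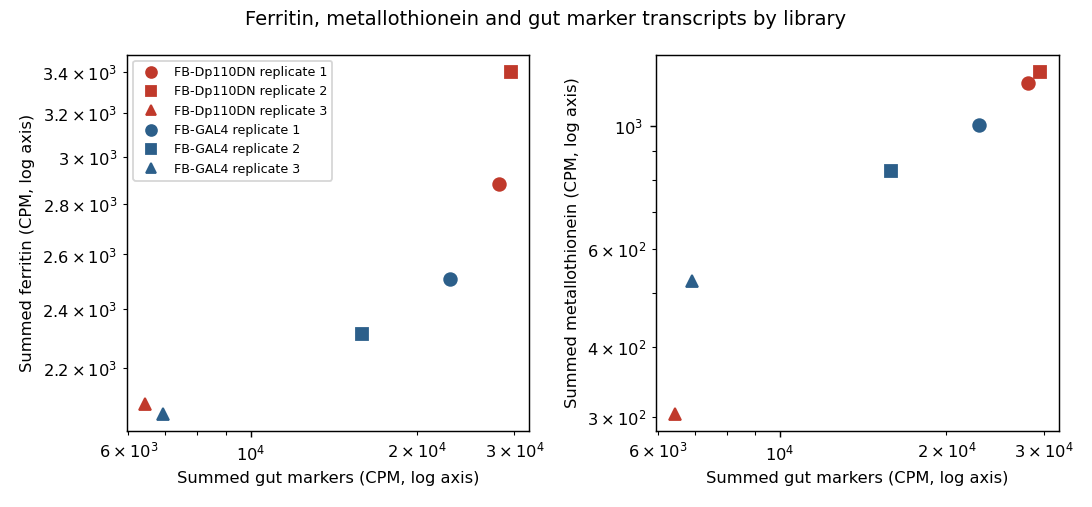
Summed CPM of the ferritin chains (left) and of the 4 metallothioneins (right) against the summed CPM of 15 gut marker genes in each library, all on log axes, coloured by group with a symbol for each replicate number. Replicate 3 of both groups lies at the lower left, and replicates 1 and 2 of FB-Dp110DN at the upper right with 1196 and 1251 CPM of metallothionein.

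Other genes of metal handling were read from the same fit. Of 17 genes listed for iron and heme, 16 were in the table and 14 were tested. In edgeR 0 were called after adjustment, 2 had an unadjusted p-value under 0.05 and a higher estimate, against 13.7% of all tested genes, and 0 a lower one, against 12.5%. The median log2 fold change was 0.02, beside 0.04 over all tested genes. IscU, the scaffold on which iron-sulphur clusters are built, stood at 353, 457 and 228 CPM in *FB-Dp110DN* and at 281, 235 and 175 CPM in the control, higher in each pair. The same sign in all 3 pairs, in either direction, was found for 56% of all tested genes, of which those lower in all 3 made up 27.7% of all tested genes. For IscU the 6 libraries had the same order as for Fer2LCH. The edgeR estimate was 0.55 (SE 0.17) on the log2 scale at an adjusted p-value of 0.153. DESeq2 called IscU, at an adjusted p-value of 0.0337, which made 1 of 14 genes of the list, against 10.7% of all genes. Without replicate 2 the edgeR estimate of IscU was 0.35. Mco1, a multicopper oxidase with a part in iron homeostasis, stood at 59.3, 61.2 and 39.8 CPM against 50.5, 33.9 and 31.7 CPM in the control. It was also higher in each pair, with an edgeR estimate of 0.47 (SE 0.16) at an adjusted p-value of 0.164, and 0.28 without replicate 2.

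Of the other abundant genes of that list, Irp-1B, a relative of the iron-regulatory proteins that control ferritin translation, had a log2 fold change of 0.36 (SE 0.16). Alas, the entry enzyme of heme synthesis, had 0.25 (SE 0.15). The mitochondrial iron importer mfrn was nearly level, at 102 ± 6.51 CPM against 99.0 ± 6.30 CPM (SD, n = 3 each), with a log2 fold change of 0.04 (SE 0.12). After adjustment their edgeR p-values ran from 0.212 to 0.841. Without replicate 1 the estimates of Irp-1B and Alas were 0.59 and 0.44, and without replicate 2 that of Alas was 0.13.

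Of 25 genes listed for copper and zinc, all were in the table and 23 were tested. In edgeR 0 were called after adjustment, 2 had an unadjusted p-value under 0.05 and a higher estimate, against 13.7% of all tested genes, and 0 a lower one, against 12.5%. The median log2 fold change was 0.07. Ctr1B, a copper importer that is a known target of MTF-1, stood at 16.2, 16.1 and 14.2 CPM in *FB-Dp110DN* and at 12.0, 11.6 and 9.06 CPM in the control. Every *FB-Dp110DN* library lay above every control library, as it did for 11.6% of all tested genes. The edgeR estimate was 0.52 (SE 0.16) on the log2 scale at an adjusted p-value of 0.153. ZnT41F, a zinc transporter, stood at 51.3, 50.4 and 39.2 CPM against 39.9, 29.6 and 33.2 CPM, with an edgeR estimate of 0.46 (SE 0.15) at an adjusted p-value of 0.159, and 0.30 without replicate 2.

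ZnT63C, a zinc exporter, was higher in all *FB-Dp110DN* libraries than in any control library, as were 11.6% of all tested genes. It stood at 111 ± 11.3 CPM against 93.5 ± 6.33 CPM (SD, n = 3 each), with a log2 fold change of 0.24 (SE 0.13). The copper and zinc superoxide dismutase gene Sod1 had a log2 fold change of 0.18 (SE 0.15) and the zinc transporter gene foi one of -0.04 (SE 0.15). After adjustment the edgeR p-values of these 3 genes were 0.270, 0.446 and 0.855. Without replicate 2 the estimate of ZnT63C was 0.16, and that of Sod1 ran from 0.11 to 0.34 over the fits without a pair. MTF-1 itself stood at 76.2, 79.5 and 58.9 CPM against 64.8, 64.5 and 51.8 CPM, with an edgeR estimate of 0.24 at an adjusted p-value of 0.244. It was higher in each pair, where 56% of all tested genes had the same sign in all 3 in either direction, and 27.7% were lower in all 3. Catsup also had every *FB-Dp110DN* library above every control library, with an edgeR estimate of 0.11 at an adjusted p-value of 0.553. MTF-1 and Catsup were named after their values had been seen.

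**Figure D5:**
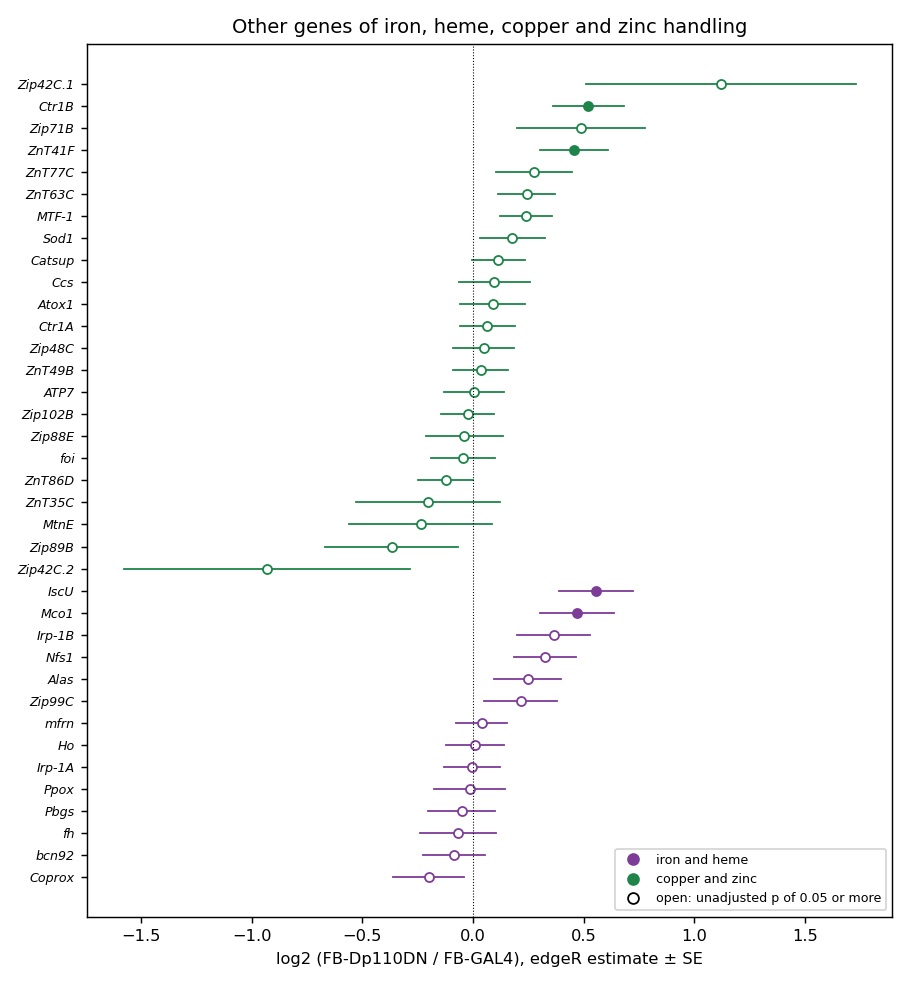
Log2 ratio of FB-Dp110DN to FB-GAL4 with its SE for the 23 tested genes of copper and zinc handling (green) and the 14 of iron and heme handling (purple), as edgeR estimates. Filled points mark an unadjusted p under 0.05, which 2 genes of each list reached, and no gene passed after adjustment over all tested genes.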

How the data were processed

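Reads were aligned by the authors with TopHat2 2.0.11 to the fly genome BDGP5 and counted per gene with HTSeq, and the table deposited by the authors holds raw read counts per gene for 6 libraries. Whether HTSeq used strand is not given in the sources used here. The same table holds the authors' DESeq2 comparison, that is, a mean signal of counts divided by size factors, a log2 fold change with its error, a Wald score and p-values, all computed by the authors. None of these columns was used.

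Counts were fitted by quasi-likelihood in edgeR 4.0.16 (R 4.3.3) after filterByExpr and TMM scaling, with the replicate number as a block and Benjamini-Hochberg adjustment over all 10398 tested genes. CPM used TMM-scaled library sizes, and pair values log2 CPM with a prior count of 2. The TMM factors were 0.986, 0.930 and 0.872 in *FB-Dp110DN* and 1.022, 1.091 and 1.122 in the control. They did not overlap between the groups, so the scaling itself raised *FB-Dp110DN* values relative to the control. The code was tested on simulated data. The pairing comes from the titles and from the study's batching by day. Deviations from group means correlated at 0.416, 0.189 and 0.590 for replicates 1, 2 and 3. These were not set against correlations between unlike numbers, so they cannot show that the numbering pairs the libraries. Control replicates 2 and 3 share a sample description, so their numbers rest on titles. The methods call the samples biological repeats. The alternatives were no block, DESeq2 1.42.0 size factors or Wald test, other filters, each pair left out and, chosen after seeing the data, the legacy edgeR test and an exact test within pairs for single values.

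Symbols came from a name table that matched 15002 of 15682 identifiers. Exonic length, arm and gene order came from BDGP6, so no coordinates are given. The members and lists were chosen with earlier results of these data known, and 1 gene first listed for iron and heme is not reported here. Named are all members, list genes with an unadjusted p under 0.05 or above 100 CPM, and for likeness the closest genes. Markers of fat body, gut, muscle, germline, hemocytes, Malpighian tubules and neurons were summed as CPM.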

Additional observations from a re-analysis of the deposited data

How the results depend on the processing

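No member passed the edgeR or DESeq2 threshold of 0.05 under any of the 9 alternatives, and the adjusted p-values of the members ran from 0.116 to 0.997. The iron and heme list had 1 called gene under the DESeq2 Wald test and 0 in the other fits. Of 90 combinations of member and alternative, 80 kept direction and 10 reversed. Without the replicate block MtnD was 0.035 on the log2 scale. MtnB was 0.0020 with DESeq2 size factors and 0.013 in the DESeq2 Wald test. Across the fits without a pair, Tsf3 ran from -0.13 to 0.44, Mvl from -0.19 to 0.13, MtnA from -0.25 to 0.45, MtnB from -0.30 to 0.31, MtnC from -0.41 to 0.14, MtnD from -0.59 to 0.35, foi from -0.19 to 0.073 and the metallothionein sum from -0.27 to 0.42. The ferritin chains, Tsf1 and Tsf2 kept their direction in all 9. Each of the 9 used TMM or DESeq2 size factors, and none used unscaled totals. Across the fits without a pair, Fer1HCH ran from 0.08 to 0.34, Fer2LCH from 0.15 to 0.43 and Tsf1 from -0.64 to -0.27. With the replicate block in the exact test, the p-values of the ferritin ratio, the metallothionein sum and the ferritin sum were 0.25, 1 and 0.25, where 0.25 is the smallest possible. Causes were not tested beyond the library values above. MtnB rests on 21 to 60 counts per library.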
